A study of Sus scrofa with 18 samples.

Results

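The 100 genes described here were those whose expression in the whole fetal brain of the pig was lowest at gestation day (GD) 60 by the widest margin, with higher levels both before, at GD45, and after, at GD90. They were taken from 10463 genes that carried a gene name and had a mean CPM, the read count scaled to the size of the library, of at least 5 over 18 libraries, out of 31908 genes in the count table. For each gene the mean log2 CPM of the 6 libraries of each day was computed, and the gene was scored by the smaller of the differences GD45 minus GD60 and GD90 minus GD60. The 100 highest scores were kept, and this score is called the drop. The drop itself was therefore fixed by the choice of genes, and the day values below are a description of the genes chosen and not a test. Among all 10463 genes, the GD60 mean lay below both other day means in 1866 (17.8%), and the median score was -0.23.

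Whole-brain RNA is a mixture of neurons, glia, vessels and meninges of all regions, so that a gene of a small nucleus is measured against the RNA of the entire brain, and fewer cells of a type and less RNA per cell cannot be told apart. Over the days studied the brain of the fetal pig grows steeply, the production of neurons gives way to that of glia, and myelin genes come on. Genes that fall and then return do not follow that single course, and the 100 genes did not belong to a single pathway. Some of the enzymes of serine synthesis, genes of dopamine neurons, synaptic organizers, mitochondrial enzymes and glial regulators were among them, with other genes of each group outside. These groupings were made after the values had been seen.

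The fetuses came from Landrace x Large White gilts bred to LR-M6 by insemination, and none had been treated. At each of GD45, GD60 and GD90, the brains of 3 female and 3 male fetuses were sequenced, giving 6 groups by sex and day. Each library was made from the whole brain of 1 fetus, and is named by sex, day and its piglet number. At each day a female and a male shared each of 3 litter sizes, while the labels do not state which fetuses shared a dam.

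The libraries held 15118843 to 19729783 counts on genes (median 16413097). All 13 neuronal markers examined passed the limit of 5 CPM. The correlation of a library's deviations with log2 gene length, a property of the library rather than of a gene, ran from -0.34 in male GD45 replicate 17 to 0.36 in female GD60 replicate 3. It was 0.36, 0.31 and 0.19 in GD60 replicates 3, 5 and 4, and -0.06, -0.27 and -0.21 in GD60 replicates 15, 6 and 16. Male GD45 replicate 17 and female GD45 replicate 18, from the litter size of 8, had brain weights of 0.7135 and 0.6653 (mg by the labels), where the other GD45 brains had 1.55 to 1.86. Drops with the length trend taken out are given below, as are results that rested on a single library with and without it. The part of brain weight in the values was not tested.

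The drops ran from 0.33 to 0.96 on the log2 scale, with a median of 0.42. The median of GD45 minus GD60 over the 100 genes was 0.44 and that of GD90 minus GD60 was 0.55, or 1.36-fold and 1.46-fold. In 93 of the 100 the GD45 and GD90 means differed by less than 0.5 on the log2 scale, a limit wider than the median drop, as they did in 55.9% of the 10463 genes. The GD90 mean was the higher in 68. Averaged over the 100 genes, the deviation of a library from the mean of the day means was -0.02 to 0.19 at GD45, -0.65 to -0.23 at GD60 and 0.17 to 0.39 at GD90. The 6 libraries of GD60 were therefore lower than the other 12 as a set, and the lowest was male GD60 replicate 16. In single genes the separation was less complete. In 10 genes all 6 GD60 libraries lay below all other 12 (0.105% of the 10463 genes), namely PHGDH, ADCYAP1, PLEKHB1, NEIL2, SUCLG2, BTBD17, NIT2, RELL1, GALC and ZNF385A. In 17 genes all GD60 libraries lay below all GD45 libraries (4.92%), and in 37 below all GD90 libraries (14.9%). Since these contrasts chose the genes, nothing is read from these counts. The last genes inside the limit were EIF5A2 and LRP4, with drops of 0.3281 and 0.3273, and the first outside were TRIQK and ETV4, with 0.3265 each.

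**Figure D1:**
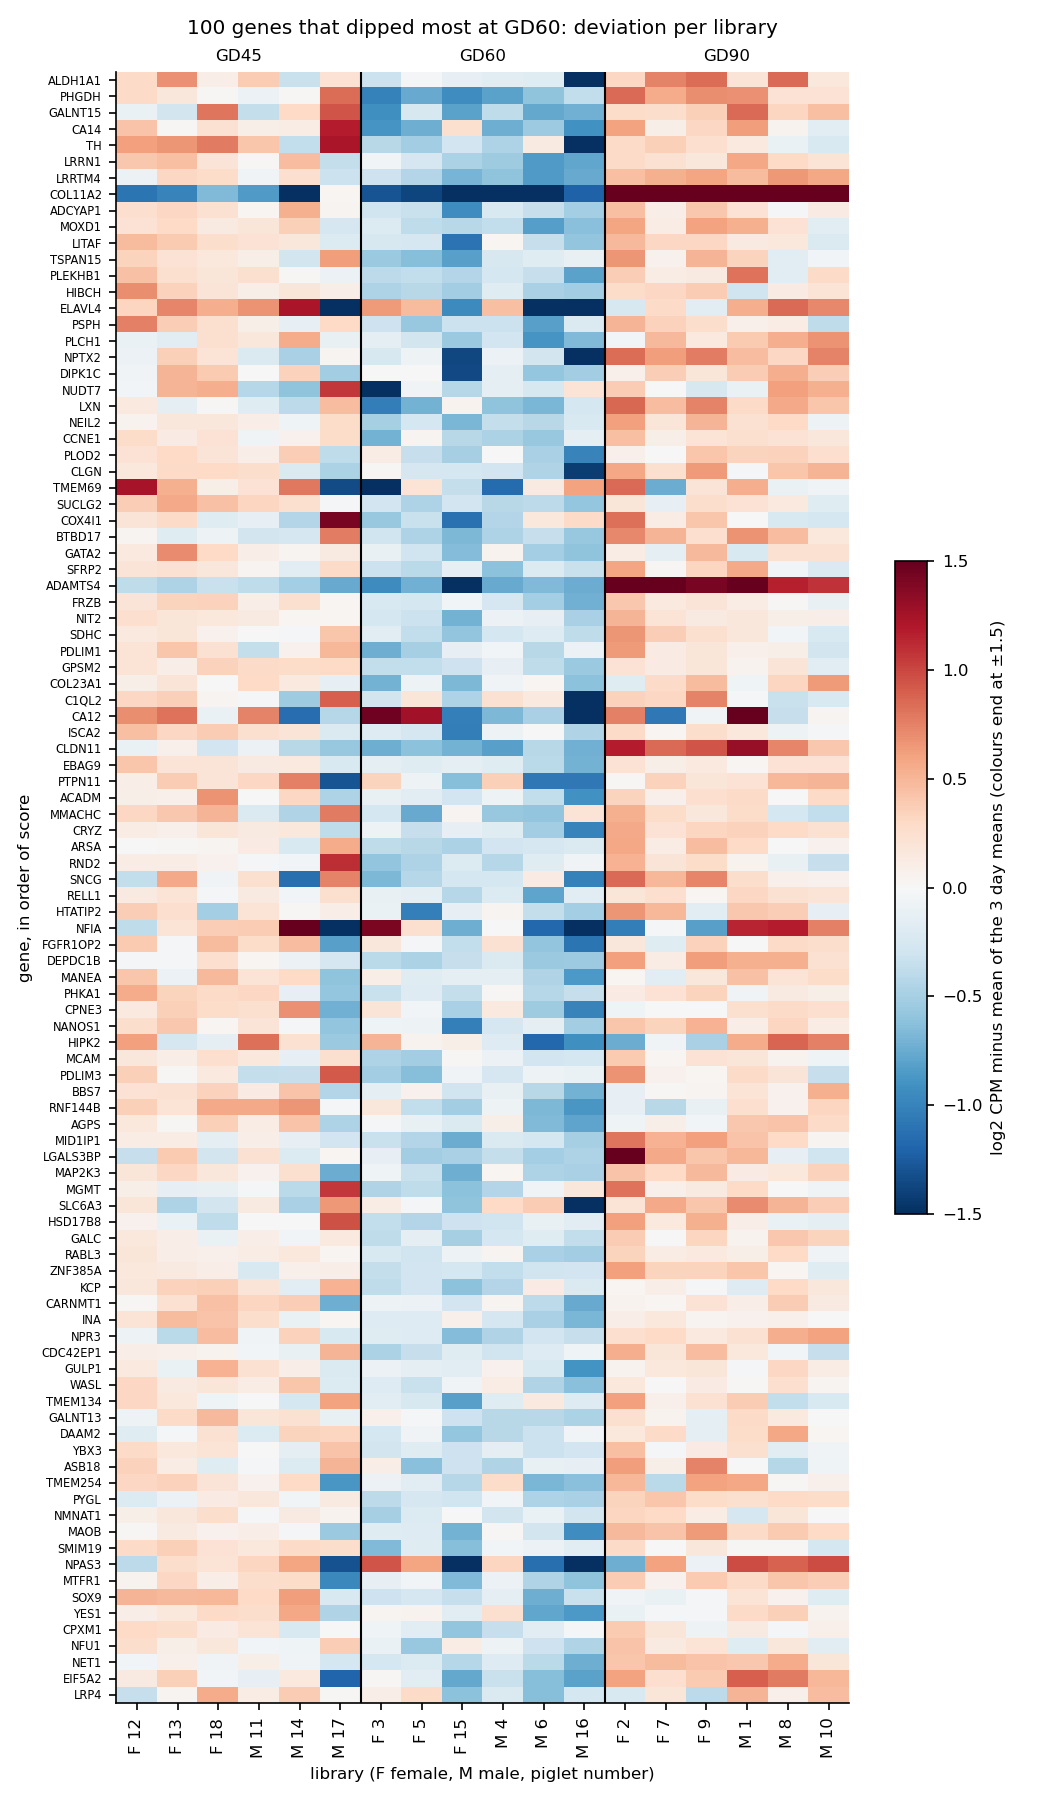
Deviation of log2 CPM from the mean of the 3 day means (colour) for the 100 genes (rows, in order of drop) in the 18 libraries (columns, F female, M male, with piglet number). The GD60 block is blue in most genes, with red cells in ELAVL4, NFIA, NPAS3 and CA12 in replicate 3, and the GD90 block is darkest in COL11A2 and ADAMTS4.

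**Figure D2:**
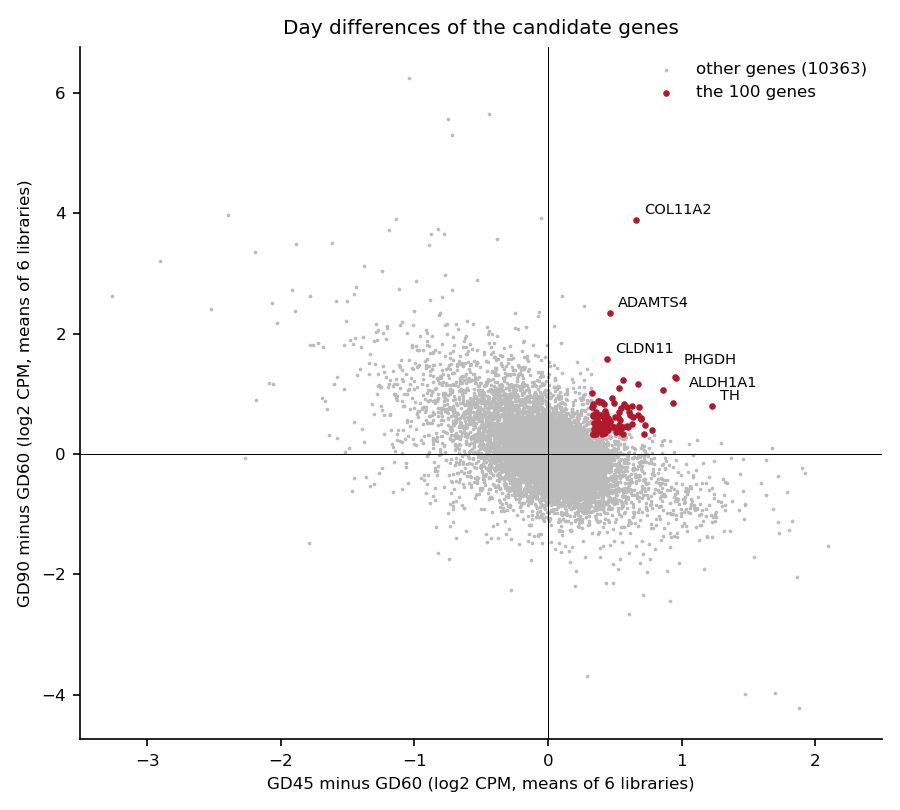
GD45 minus GD60 against GD90 minus GD60, each from means of 6 libraries in log2 CPM, for the 100 genes (red) and the other 10363 genes of the selection (grey). The 100 genes fill the upper right corner by construction, and COL11A2, at 3.88 for GD90 minus GD60, lies farthest from the others.

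Serine synthesis held one of the clearest members. PHGDH, the enzyme that commits a glycolytic intermediate to the synthesis of serine, had 45.8 to 86.5 CPM at GD45 around a median of 51.9, 24.03 to 37.6 at GD60 around a median of 28.2 and 56.2 to 87.6 at GD90 around a median of 74.7. No GD60 library reached any library of the other days. The day means were 57.4 ± 15.0, 29.2 ± 4.95 and 71.4 ± 12.8 CPM (SD, n = 6), a drop of 0.95. PSPH, the phosphatase of the last step of the same pathway, was expressed at a lower level, with 4.67 to 8.67 CPM at GD45 around a median of 6.19, 2.85 to 4.37 at GD60 around a median of 4.07 and 3.90 to 7.29 at GD90 around a median of 5.84. Its GD60 libraries lay below all GD45 libraries and overlapped those of GD90. PSPH overlaps NIPSNAP2, a gene on the opposite strand with many more counts, and the use of strand in the counting was not stated. PSAT1, the transaminase between the 2 enzymes, was not among the 100 genes, with means of 68.0, 77.5 and 174 CPM at GD45, GD60 and GD90. Of 9 genes of serine and glycine metabolism in the selection, a list made after the values were seen, PHGDH and PSPH were members, 4 had a drop above 0, and the median was -0.02, against -0.23 over all 10463 genes.

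The genes of dopamine neurons formed another group, and its values rested in large part on a single library. Dopamine neurons are few, are born early in the ventral midbrain and make dopamine by TH, the rate-limiting enzyme of catecholamine synthesis, and DDC. TH had 5.37 to 16.5 CPM at GD45 around a median of 11.0, 1.14 to 7.72 at GD60 around a median of 5.13 and 5.95 to 8.96 at GD90 around a median of 8.05. ALDH1A1, which makes retinoic acid and marks a subset of these neurons, had 3.47 to 7.12 CPM at GD45 around a median of 5.24, 0.253 to 4.29 at GD60 around a median of 3.87 and 4.93 to 7.98 at GD90 around a median of 6.46. SLC6A3, the dopamine transporter, had 4.80 to 10.7 CPM at GD45 around a median of 6.54, 0.949 to 8.90 at GD60 around a median of 7.03 and 7.83 to 11.2 at GD90 around a median of 9.42. In each of the 3 genes male GD60 replicate 16 was the lowest of all 18 libraries. The other 5 GD60 libraries had 4.85 to 7.72 CPM of TH, 3.48 to 4.29 of ALDH1A1 and 4.43 to 8.90 of SLC6A3. Without that library the drop of ALDH1A1 went from 0.96 to 0.39, that of TH from 0.79 to 0.42 and that of SLC6A3 from 0.37 to -0.08. ALDH1A1 was also close to the limit on level, with a mean of 5.01 CPM.

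Male GD60 replicate 16 was the lowest GD60 library in most of the genes listed here for these neurons, but not in these alone. It was the lowest in 36 of the 100 genes, and the share over all genes was not computed. The summed hindbrain and spinal cord list had 5.76 CPM in it and 17.1 to 33.0 in the other GD60 libraries. The summed neuronal list was not the lowest there, with 4417 CPM against 4326 to 5675. Of 14 genes with a mean of at least 1 CPM on a list of dopamine neuron genes, made after the values were seen, male GD60 replicate 16 was the lowest GD60 library in 10, of which 7 were not among the 100 genes, namely DDC, GCH1, KCNJ6, RET, LMX1A, FOXA1 and FOXA2. The share over all genes was not computed for this count either, and FOXA1 and FOXA2 had means of only 1.59 and 1.08 CPM. DDC, which ranked 117 and so lay just outside the 100 genes, had 2.91 CPM in male GD60 replicate 16 and 7.11 to 9.52 in the other 5 GD60 libraries. RET, a receptor of neurotrophic factors, had 8.54 CPM there and 10.8 to 24.9 in the others. That library was not the lowest in 4 genes of the list, among them SLC18A2, the transporter that loads dopamine into vesicles, with 12.03 CPM there and 9.62 to 14.8 in the others. NR4A2, a transcription factor of dopamine neurons that other neurons also use, had 53.5 against 39.6 to 62.1. Of the 9 genes of the list with at least 5 CPM, 3 were members and 5 had a drop above 0, with a median of 0.01. MAOB, which breaks down dopamine and is also made by astrocytes, had 29.3 to 47.2 CPM at GD45, 22.5 to 43.4 at GD60 and 52.7 to 66.8 at GD90. Its GD60 libraries lay below those of GD90 and overlapped those of GD45.

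**Figure D3:**
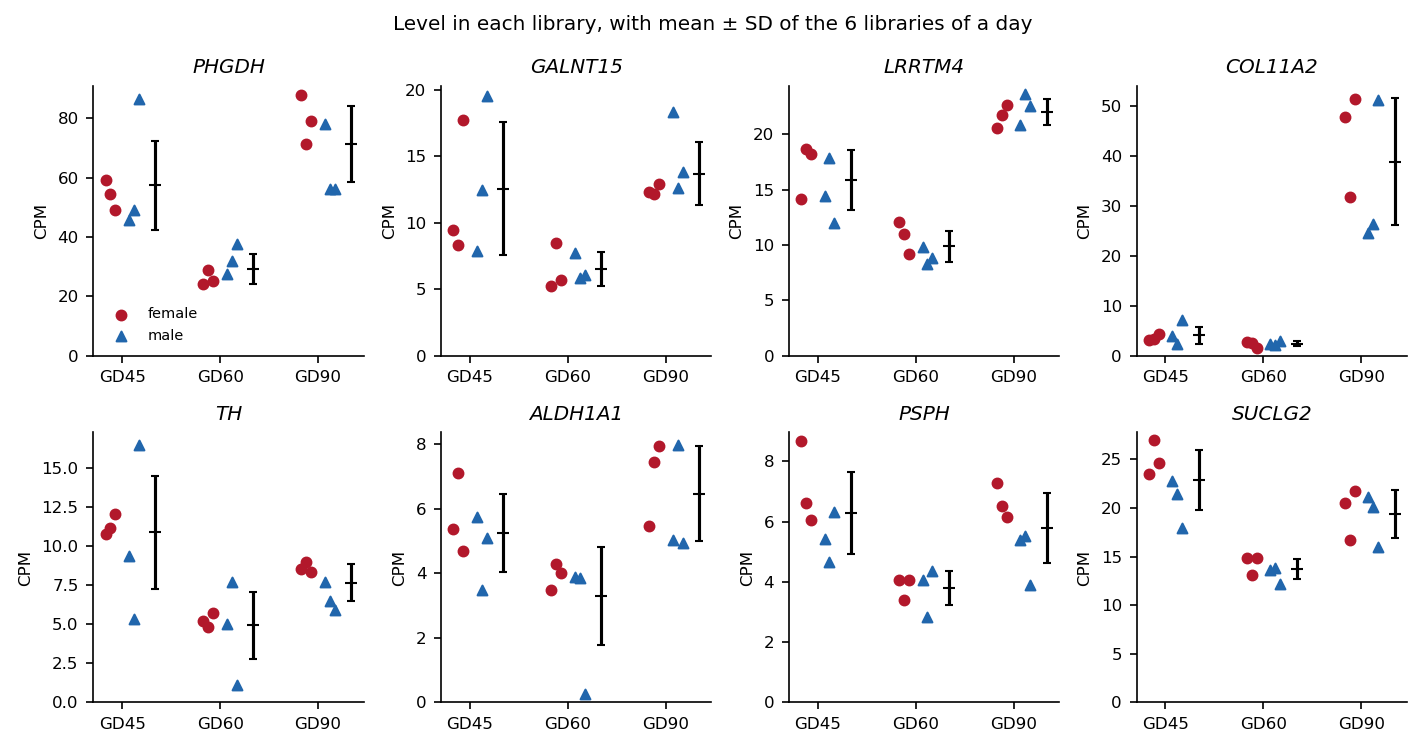
CPM of 8 of the 100 genes in each library (circles female, triangles male) at GD45, GD60 and GD90, with the mean ± SD of the 6 libraries of a day as bars. PHGDH and SUCLG2 separate GD60 from the other days in every library, and in TH and ALDH1A1 the lowest of all points is a male GD60 library, at 1.14 and 0.253.

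Promoters are shown for PHGDH and PSPH, which share a pathway, and for TH and LRRTM4, from the dopamine and the synapse genes, so that their sequence features can be compared. Each runs 5′ to 3′ along the gene from 250 bases before to 50 bases after the start of the RefSeq gene on Sscrofa11.1, and capitals mark the letters of the motifs searched. The regions are chr4:101478095-101478394 on the minus strand for PHGDH, chr3:16877654-16877953 on the plus strand for PSPH, chr2:1506131-1506430 on the minus strand for TH and chr3:66128400-66128699 on the plus strand for LRRTM4.
PHGDH: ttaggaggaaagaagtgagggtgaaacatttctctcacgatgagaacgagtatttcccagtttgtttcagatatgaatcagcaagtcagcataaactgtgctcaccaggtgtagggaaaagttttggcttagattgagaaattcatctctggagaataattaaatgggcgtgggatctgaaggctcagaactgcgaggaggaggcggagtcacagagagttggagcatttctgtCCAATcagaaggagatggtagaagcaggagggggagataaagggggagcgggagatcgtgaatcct
PSPH: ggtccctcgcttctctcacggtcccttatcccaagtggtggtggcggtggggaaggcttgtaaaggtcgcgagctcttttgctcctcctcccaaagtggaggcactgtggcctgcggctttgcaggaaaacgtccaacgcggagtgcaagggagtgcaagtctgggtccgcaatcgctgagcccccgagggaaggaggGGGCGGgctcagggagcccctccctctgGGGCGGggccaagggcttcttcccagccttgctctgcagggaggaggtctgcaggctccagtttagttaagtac
TH: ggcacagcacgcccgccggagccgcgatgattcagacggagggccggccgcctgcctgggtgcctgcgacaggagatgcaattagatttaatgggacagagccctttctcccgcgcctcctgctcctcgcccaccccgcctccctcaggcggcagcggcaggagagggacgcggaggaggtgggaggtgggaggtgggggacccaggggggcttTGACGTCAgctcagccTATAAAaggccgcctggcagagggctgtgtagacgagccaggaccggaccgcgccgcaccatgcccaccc
LRRTM4: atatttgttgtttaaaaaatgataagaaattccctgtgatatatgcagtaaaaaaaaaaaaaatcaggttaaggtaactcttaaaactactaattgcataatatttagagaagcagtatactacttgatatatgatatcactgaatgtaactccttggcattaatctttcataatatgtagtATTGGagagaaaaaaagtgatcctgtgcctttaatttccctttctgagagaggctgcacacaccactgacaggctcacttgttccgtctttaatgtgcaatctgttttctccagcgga

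The 4 sequences had little in common. PHGDH held a CCAAT box 16 bases before its start, PSPH held GGGCGG at 52 and 24 bases before, and LRRTM4 held CCAAT on the reverse strand 68 bases before. TH held TATAAA 20 bases before its start and TGACGT on both strands in overlapping positions, the first base at 36 and 34 bases before, which together spell the palindrome of the cyclic AMP response element. The share of G and C was 46.3% in PHGDH, 63.0% in PSPH, 69.0% in TH and 33.0% in LRRTM4. Promoters were found for 97 of the 100 genes and for 9819 of the 10463. The RefSeq start lay within 100 bases of the start of the counted gene in 60 of the 97 and in 4945 of the 9819. In TH these starts lay 435 bases apart. The median share of G and C was 63.3% in the promoters of the 100 genes and 63.0% in all promoters. Searched on both strands as letters, GGGCGG stood in 60.8% of the promoters of the 100 genes and in 65.1% of all promoters, CCAAT in 34.02% and 35.5%, TATAAA in 8.25% and 6.94%, and CACGTG in 8.25% and 9.53%. TGACGT stood in 6.19% and 10.6%, GCATGCG in 3.09% and 5.14%, TGACTCA in 1.03% and 2.60%, and CCGGAAG, the letters bound by ETS factors, in 4.12% (4 promoters) and 15.1%. These shares are a description, and the absence of the letters from a window says nothing about a factor.

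Among the 20 highest drops were LRRTM4, ADCYAP1, LRRN1 and NPTX2, genes of synapses and of neuronal signalling put together here after the values were seen. LRRTM4, a leucine-rich repeat protein that organizes excitatory synapses, had 11.95 to 18.7 CPM at GD45 around a median of 16.1, 8.25 to 12.04 at GD60 around a median of 9.52 and 20.5 to 23.6 at GD90 around a median of 22.1. Its GD60 and GD45 libraries met at a single pair of values, and its GD90 libraries lay well above. ADCYAP1, which encodes the neuropeptide PACAP, had 27.9 to 39.6 CPM at GD45 around a median of 32.3, 14.3 to 23.3 at GD60 around a median of 21.6 and 26.9 to 37.3 at GD90 around a median of 30.8, with no overlap between GD60 and the other days. LRRN1, a leucine-rich repeat protein of the neuronal surface, had 27.4 to 48.7 CPM at GD45, 19.5 to 34.2 at GD60 and 39.5 to 52.6 at GD90. NPTX2, a secreted pentraxin that gathers AMPA receptors, had 10.4 to 18.8 CPM at GD45, 5.00 to 13.9 at GD60 and 18.2 to 26.3 at GD90. In NPTX2, female GD60 replicate 15 and male GD60 replicate 16, both of the litter size of 8, had 5.57 and 5.00 CPM, while the other 4 GD60 libraries had 11.99 to 13.9. Without these 2 libraries its drop went from 0.56 to 0.14. C1QL2, a secreted C1q-like protein of synapses, went from 0.45 to 0.17 without male GD60 replicate 16. Of 13 genes of pentraxins, LRRTM proteins and C1q-like proteins in the selection, 3 were members and 6 had a drop above 0, while NPTXR, the receptor of the same family, had means of 148, 268 and 550 CPM at GD45, GD60 and GD90.

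ELAVL4, an RNA-binding protein of neurons, was the neuronal marker among the 100 genes, 1 of 13 on that list. It had 4.87 to 77.0 CPM at GD45 around a median of 50.1, 9.37 to 50.9 at GD60 around a median of 30.8 and 27.6 to 59.4 at GD90 around a median of 43.9. Its GD60 libraries fell into 2 sets, 44.8 to 50.9 CPM in replicates 3, 5 and 4 and 9.37 to 16.9 in replicates 15, 6 and 16, and at GD45 male replicate 17 had 4.87 where the others had 41.0 to 77.0. These sets are the libraries of positive and of negative correlation with gene length. With the trend of each library with gene length taken out, the drop of ELAVL4 was 0.55 in place of 0.59, and without male GD60 replicate 16 it was 0.32. The summed level of the 13 neuronal markers, ELAVL4 included, was 3052 to 4173 CPM at GD45, 4326 to 5675 at GD60 and 7086 to 7816 at GD90, and 3 of the 13 had a drop above 0.

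Enzymes and other proteins of mitochondria, put together here after the values were seen, are given next. SUCLG2, a subunit of succinyl-CoA ligase in the citric acid cycle, had 17.9 to 27.03 CPM at GD45 around a median of 23.2, 12.2 to 14.9 at GD60 around a median of 13.7 and 16.0 to 21.8 at GD90 around a median of 20.3, with GD60 below every other library. HIBCH, an enzyme of valine breakdown, had 12.4 to 19.1 CPM at GD45, 8.09 to 10.3 at GD60 and 9.45 to 15.3 at GD90, so that GD60 lay below GD45 and overlapped GD90. SDHC, a membrane subunit of succinate dehydrogenase, had 39.3 to 53.6, 26.6 to 35.7 and 34.2 to 63.4 CPM. COX4I1, a subunit of cytochrome c oxidase, had 44.7 to 162, 27.7 to 73.9 and 50.2 to 108 CPM, and its highest value came from male GD45 replicate 17, without which its drop was 0.28 in place of 0.48. ACADM, the medium-chain acyl-CoA dehydrogenase, ISCA2 and NFU1, both of iron-sulfur cluster assembly, and MMACHC, which processes vitamin B12, were also members, with drops of 0.43, 0.44, 0.33 and 0.43. Of 61 nuclear genes of the respiratory chain, COX4I1 and SDHC were members, 34 had a drop above 0 (17.8% over all genes), and the median was 0.04. The summed level of all 66 such genes in the table had day medians of 7203, 6982 and 6983 CPM. At GD45 it was 12486 CPM in male replicate 17 and 6181 to 8233 in the other 5 libraries, and the sum of the cytosolic ribosomal proteins was likewise 79467 against 30725 to 41342. The part of that library in the count of 34 was not tested. The 13 genes encoded by the mitochondrial genome had none above 0, and their median was -0.44. Of 61 mitochondrial ribosomal proteins 18 had a drop above 0, and of 52 cytosolic ribosomal proteins 0.

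GALNT15, a Golgi enzyme that starts mucin-type O-glycans, had the third highest drop, 0.86. It had 7.87 to 19.6 CPM at GD45 around a median of 11.0, 5.27 to 8.51 at GD60 around a median of 5.98 and 12.2 to 18.4 at GD90 around a median of 12.8, and GD60 overlapped GD45 and lay below GD90. CA14, a membrane carbonic anhydrase, had 5.16 to 11.7, 2.66 to 6.03 and 4.54 to 7.92 CPM, and CA12, of the same family, 2.15 to 8.63, 0.696 to 13.6 and 2.26 to 22.2 CPM. The ranges of CA12 overlapped at every day, and without male GD60 replicate 16 its drop went from 0.44 to -0.01. CA14 overlaps APH1A, which had many more counts, on the opposite strand. Of 7 carbonic anhydrases in the selection, 3 had a drop above 0, and the median was -0.18. MOXD1, a monooxygenase related to dopamine beta-hydroxylase, LITAF, a protein of endosomes, and TSPAN15, a tetraspanin that guides the protease ADAM10, had drops of 0.63, 0.61 and 0.61. PLEKHB1, a protein with a pleckstrin homology domain, had 54.1 to 77.7, 33.0 to 48.0 and 51.6 to 101 CPM with GD60 below all other libraries. PLCH1, a phospholipase C, and DIPK1C, a kinase-like protein of the secretory pathway, and NUDT7, a peroxisomal coenzyme A diphosphatase, had drops of 0.57, 0.55 and 0.54. The drop of DIPK1C was 0.36 without female GD60 replicate 15 and that of NUDT7 was 0.31 without female GD60 replicate 3.

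In a few genes the GD90 level lay far above that of GD45 as well as that of GD60. COL11A2, a fibrillar collagen chain best known from cartilage, had 2.34 to 7.23 CPM at GD45 around a median of 3.68, 1.55 to 2.97 at GD60 around a median of 2.54 and 24.6 to 51.3 at GD90 around a median of 39.8. GD60 overlapped GD45, while the 6 GD90 libraries were many times higher than all others, a mean difference of 3.88 on the log2 scale. ADAMTS4, a protease of the brain's proteoglycan matrix that mature oligodendrocytes also make, had 3.81 to 5.17, 1.80 to 4.10 and 13.9 to 21.7 CPM, and its drop was 0.29 in place of 0.46 without female GD60 replicate 15. CLDN11, a tight junction protein of myelin and of the meninges, had 49.0 to 76.6, 41.3 to 54.4 and 95.9 to 180 CPM. These were the 3 genes whose GD90 mean exceeded the GD45 mean by more than 1 on the log2 scale. The summed level of 12 cartilage and bone genes, COL11A2 included, did not follow COL11A2, with 253 to 423 CPM at GD45, 305 to 365 at GD60 and 252 to 344 at GD90. The summed level of 12 oligodendrocyte genes was 198 to 289, 346 to 404 and 2298 to 3798 CPM, and 0 of its 10 genes in the selection had a drop above 0. Among 53 genes of the extracellular matrix, COL11A2 and COL23A1 were members and 12 had a drop above 0, with a median of -0.22.

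Regulators and enzymes of glia made up a further group. SOX9, a transcription factor of radial glia and astrocytes, had 42.7 to 77.3 CPM at GD45 around a median of 70.4, 30.2 to 45.5 at GD60 around a median of 40.0 and 44.3 to 57.7 at GD90 around a median of 48.5. GD60 overlapped both other days by narrow margins, male GD45 replicate 17 being the low GD45 library. BTBD17, which is enriched in glial cells, had 16.0 to 33.2, 12.2 to 15.7 and 21.8 to 32.1 CPM with no overlap, and its drop was 0.31 in place of 0.48 without male GD45 replicate 17. NFIA, a transcription factor that starts gliogenesis, had 3.58 to 31.7 CPM at GD45 and 3.42 to 28.2 at GD60, with medians of 12.8, 8.37 and 14.1 at GD45, GD60 and GD90. Its libraries overlapped at every day, and its drop of 0.41 went to 0.12 without male GD45 replicate 14. NPAS3, a transcription factor of neural progenitors, ranged as widely, and its drop of 0.34 went to 0.10 without female GD60 replicate 15. Of 9 glial regulators in the selection, named after their values were seen, 4 were members, 5 had a drop above 0 and the median was 0.17. Of the astrocyte markers themselves 0 of 6 had a drop above 0, and the summed level of that list was 219 to 390 CPM at GD45, 463 to 594 at GD60 and 1683 to 2183 at GD90. SFRP2 and FRZB, secreted antagonists of Wnt, had drops of 0.47 and 0.46, and ARSA and GALC, lysosomal enzymes that take apart the sphingolipids of myelin, had 0.42 and 0.37. In GALC the GD60 libraries, at 6.34 to 8.13 CPM, lay below the GD45 libraries, at 8.41 to 10.1, and the GD90 libraries, at 8.96 to 12.03. Of 8 secreted Wnt antagonists 3 had a drop above 0, and of 10 genes of glycosphingolipid breakdown 6.

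The lists of cell types and pathways were otherwise thin among the 100 genes. No gene of the lists of astrocytes, oligodendrocytes, radial glia, microglia, endothelium, pericytes, meninges, choroid plexus, ependyma, red cells, muscle, skin, pituitary, pancreas and liver, eye or hindbrain and spinal cord was a member. The lists of histones, immediate early genes, heat shock, hypoxia and glycolysis, cell cycle, cholesterol synthesis and interferon response likewise held 0 members. Of 357 ion channels and transporters in the selection, SLC6A3 was the 1 member and 44 had a drop above 0. The highest shares of genes with a drop above 0 among these lists were 4 of 8 for pericytes and smooth muscle and 9 of 19 for cholesterol synthesis, with medians of 0.01 and -0.00326. The summed level of the choroid plexus list was 1013 to 1841 CPM at GD45, 740 to 1272 at GD60 and 499 to 1084 at GD90, and that of the meningeal list 972 to 1790, 1189 to 1445 and 1250 to 1617.

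The 100 genes were less expressed than the genes they were chosen from, with a median of 16.2 against 37.9 CPM, and 29 had a mean under 10 CPM. Their summed exon length had a median of 3742 bases, against 4657. Chromosome 13 held 11% of the 100 genes and 6.69% of all, and chromosome 15 held 8% and 4.15%. COL11A2 and HSD17B8 lay 12720 bases apart on chromosome 7, the closest pair of members, and ADCYAP1 and YES1 lay 83184 bases apart on chromosome 6. In 47 of the 100 genes the span overlapped another annotated gene, such as that of NEIL2 with FDFT1 on the same strand and that of LXN with GFM1 on the opposite strand. The table of counts per exon and that per transcript, made from the same reads and so no independent check, showed how far the dip ran along the gene. Of 304 exons of the 100 genes with at least 1 CPM, 255 (83.9%) were lowest at GD60, against 19.8% of the exons of all genes in the selection. Of 64 transcripts 55 (85.9%) were lowest at GD60, against 18.3%. All 9 measured exons of PHGDH, all 6 of SUCLG2 and all 5 of TH were lowest at GD60. Of 50 genes with at least 3 measured exons, 28 had every exon lowest at GD60, and in 2 most exons were lowest at another day.

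Whether the 100 genes differed between the sexes was tested with edgeR's quasi-likelihood test, on all 16325 genes with enough counts and with Benjamini-Hochberg adjustment. The choice of the genes had pooled the sexes, so this contrast was not used in it. At GD45, GD60 and GD90, 0 of the 100 genes had an adjusted p under 0.05, where 0.0919%, 0.098% and 0.098% of all genes tested did. At an unadjusted p under 0.05 there were 3, 9 and 8 of the 100 genes, against 2.59%, 4.80% and 13.6% of all genes. DESeq2 and the likelihood ratio test also gave 0 at each day. The log2 differences of males minus females over the 100 genes ran from -0.57 to 0.56 at GD45, from -1.93 to 0.69 at GD60 and from -0.88 to 1.63 at GD90, with medians of -0.09, -0.03 and -0.08.

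No difference between the sexes in the change from day to day passed the same test among the 100 genes. The interaction of sex and day gave 0 genes from GD45 to GD60 (0% of all genes) and 0 from GD60 to GD90 (0%), with 3 and 16 at an unadjusted p under 0.05, against 2.04% and 19.8% of all genes. The gene nearest to a call was HIPK2, a kinase of transcriptional control, for GD60 to GD90, with a log2 interaction of 2.11 ± 0.47 (SE) and an adjusted p of 0.175 by edgeR. HIPK2 was the 1 gene called by DESeq2, which called 1.64% of all genes, and by the likelihood ratio test, which called 0.79%. Without male GD45 replicate 17 the quasi-likelihood test called 9 of the 100 genes for GD60 to GD90, namely COX4I1, NFIA, TSPAN15, PHGDH, HSD17B8, CDC42EP1, SMIM19, RND2 and HIPK2, and 13.3% of all genes, a share higher than that of the 100 genes.

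To see how far the dip recurred in fetuses not used to choose the genes, the rule was applied to the 9 libraries of a single sex, and the 100 genes it chose were read in the other sex. The fetuses of the other sex had the same days and litter sizes. They were separate animals, but the labels do not show that they came from separate dams. Of 100 genes chosen in females, 63 had both day means above GD60 in males, against 19.1% of all genes. Their median drop fell from 0.52 in females to 0.10 in males, where the median over all genes was -0.26. Of 100 genes chosen in males, 43 had both day means above GD60 in females, against 23.7%, and their median drop went from 0.53 to -0.07, over all genes -0.23.

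Of the genes chosen in females, 8 had an adjusted p under 0.05 for a lower level at GD60 than at GD45 in males by edgeR (2.53% of all genes tested, 3.19% of those with a name and at least 5 CPM), and 26 for a higher level at GD90 than at GD60 (18.5% and 20.5%). The 8 were MOXD1, SUCLG2, LRRN1, LRRTM4, CA14, PHGDH, GPSM2 and PRR15. Of the genes chosen in males, 9 were lower at GD60 than at GD45 in females (2.88% and 3.31%), and 18 were higher at GD90 (13.7% and 15.5%). The 9 were SMC2, SUCLG2, ADCYAP1, NEIL2, INA, PLEKHB1, LRRTM4, PHGDH and SOX9. The count for the rise to GD90 was near the share over all genes in females and not far above it in males. In males the count ran from 13 to 32 with 1 library left out, and the shares over all genes in those fits are not given here. In females, 6 genes chosen in males were called in the opposite direction at that step. PRR15 and SMC2, a condensin subunit, were not among the 100 genes, while GPSM2, which orients the spindle of dividing progenitors, and INA, a neuronal filament protein, were. Both steps were passed in males by 7 genes, PHGDH, LRRTM4, SUCLG2, CA14, MOXD1, GPSM2 and LRRN1, and in females by 6, PHGDH, LRRTM4, SUCLG2, PLEKHB1, ADCYAP1 and NEIL2. The share of all genes that passed both steps was not computed, so these counts have no measure to be read against. In males PHGDH fell by 0.90 on the log2 scale from GD45 to GD60 (adjusted p of 0.0189 by edgeR) and rose by 0.98 to GD90 (adjusted p of 0.00253 by edgeR). In females it fell by 1.04 (adjusted p of 0.00778 by edgeR) and rose by 1.60 (adjusted p of 4.99e-05 by edgeR). The fall of PHGDH was not called in males without male GD60 replicate 4 or 6, and in females PHGDH was not among the genes chosen and called in either step without male GD45 replicate 17. LRRTM4 fell by 0.71 and rose by 1.32 in males (adjusted p of 0.0138 and 1.66e-05 by edgeR) and fell by 0.64 and rose by 1.00 in females (adjusted p of 0.0225 and 0.000212 by edgeR). SUCLG2 fell by 0.65 and rose by 0.54 in males (adjusted p of 0.0129 and 0.00897 by edgeR) and fell by 0.79 and rose by 0.45 in females (adjusted p of 0.00349 and 0.0272 by edgeR). PHGDH, LRRTM4 and SUCLG2 were chosen in each sex and read in the other, and are given because they passed in both. The readings in males and in females together use the libraries that chose each gene, so neither adds a separate check to the other. With 1 library left out and the genes chosen anew, the fall of LRRTM4 was called in 15 of 18 fits in males and 14 in females, and that of SUCLG2 in 12 and 16. The fall of MOXD1 in males was called in 5 of the 18, and in females that of PLEKHB1 in 5 and that of NEIL2 in 9.

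These counts rested on few libraries. With a fit to the 9 libraries of the sex read alone, the genes lower at GD60 numbered 1 in males in place of 8 (0.753% of all genes), and 15 in females in place of 9 (5.03%). The 1 gene in males was PRR15, so that the falls of PHGDH, LRRTM4 and SUCLG2 in males were not called by that fit, while in females all 3 passed both steps. The count of 8 was 5 without female GD60 replicate 5 or female GD90 replicate 9, and 3 without male GD60 replicate 6 or male GD60 replicate 16. The count of 26 was 13 without female GD60 replicate 15. The count of 9 was 3 without female GD45 replicate 13, 4 without female GD45 replicate 18 or male GD60 replicate 4, 2 without male GD45 replicate 17 and 5 without female GD60 replicate 5. The count of 18 was 32 without male GD45 replicate 14, 7 without male GD45 replicate 17, 9 without male GD60 replicate 4 and 11 without female GD90 replicate 2 or 9. The shares over all genes in these fits with 1 library left out are not given here. A change in a count is therefore not read as a change in the chosen genes. Of the genes chosen in females 51 were among the 100 genes, and of those chosen in males 43. A total of 15 genes were chosen in each sex alone, 15% of each list, and all 15 were among the 100 genes. They were PHGDH, GALNT15, ADCYAP1, TH, CA14, COL11A2, LRRTM4, NEIL2, PLEKHB1, LXN, CCNE1, MOXD1, SFRP2, LRRN1 and SUCLG2. The day means behind the 100 genes average both sexes, so their overlap with these lists was largely built into the rule. Nothing is read from it.

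**Figure D4:**
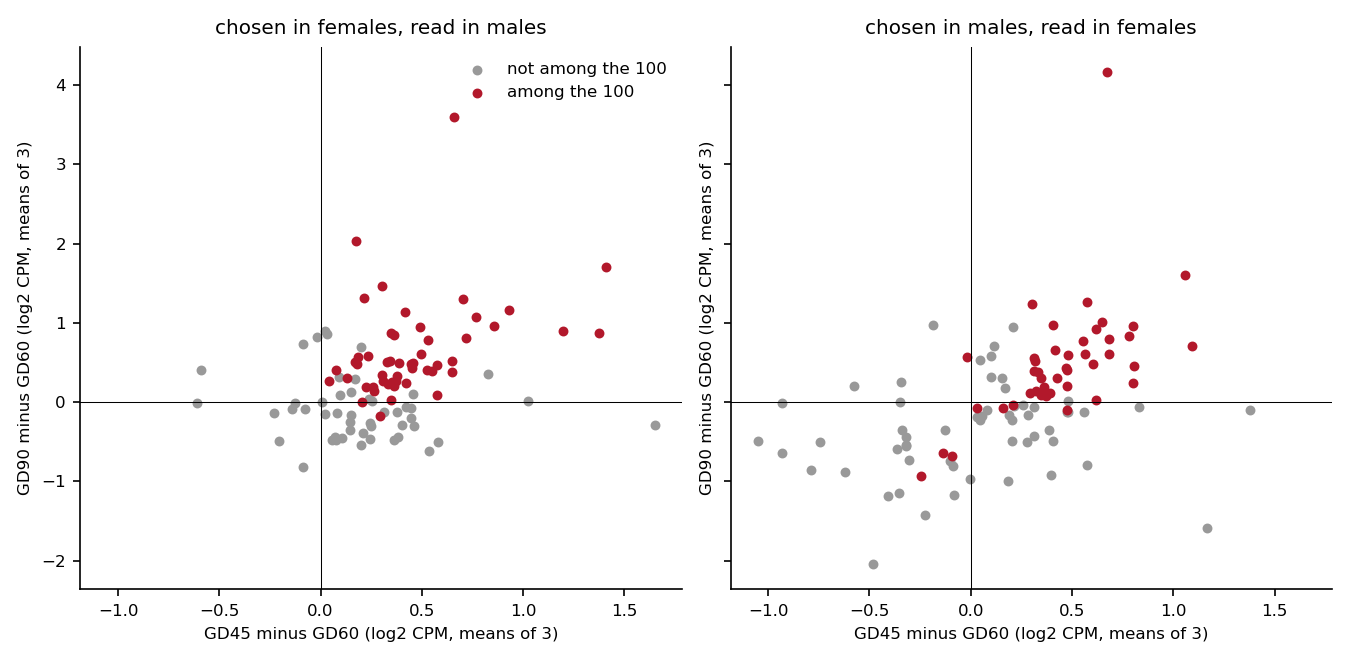
Day differences in males of the 100 genes chosen in females (left) and in females of the 100 genes chosen in males (right), each point a gene, from means of 3 libraries in log2 CPM. In the upper right quadrant lie 63 genes on the left and 43 on the right. The genes that are also among the 100 (red) hold most of it, but the choice of the 100 also used the libraries plotted here.

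The GD60 libraries did not carry the dip equally. With GD60 taken as replicates 3, 4 and 5, the median drop of the 100 genes was 0.33, and with replicates 6, 15 and 16 it was 0.56, the larger drop standing in the latter set in 73 genes. In 7 genes the drop was at or below 0 with replicates 3, 4 and 5, namely ELAVL4, CA12, PTPN11, NFIA, SLC6A3, NPAS3 and YES1, and in 1, TMEM69, with replicates 6, 15 and 16. ELAVL4 had a drop of -0.39 in the former set and 1.56 in the latter. PHGDH had 1.06 and 0.84, so that its dip stood in both sets. The sets were formed after the data had been seen, from the correlation with gene length, and each left 39 of the 100 genes in a list of 100 made anew. When the trend of each library with gene length was taken out, 83 of the 100 genes stayed in the list, and none had a drop at or below 0.

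Single libraries also decided membership at the edge. Whichever of the 18 libraries was left out, 33 of the 100 genes stayed in the list, and 98 kept a drop above 0, the others being CA12 and SLC6A3. The list kept 65 of its genes without male GD45 replicate 17, which was the lowest GD45 library in 46 of the 100 genes and the highest in 30. It kept 72 without male GD60 replicate 16, which was the lowest GD60 library in 36. In 26 genes leaving out 1 library made the drop at least 1.5 times smaller.

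**Figure D5:**
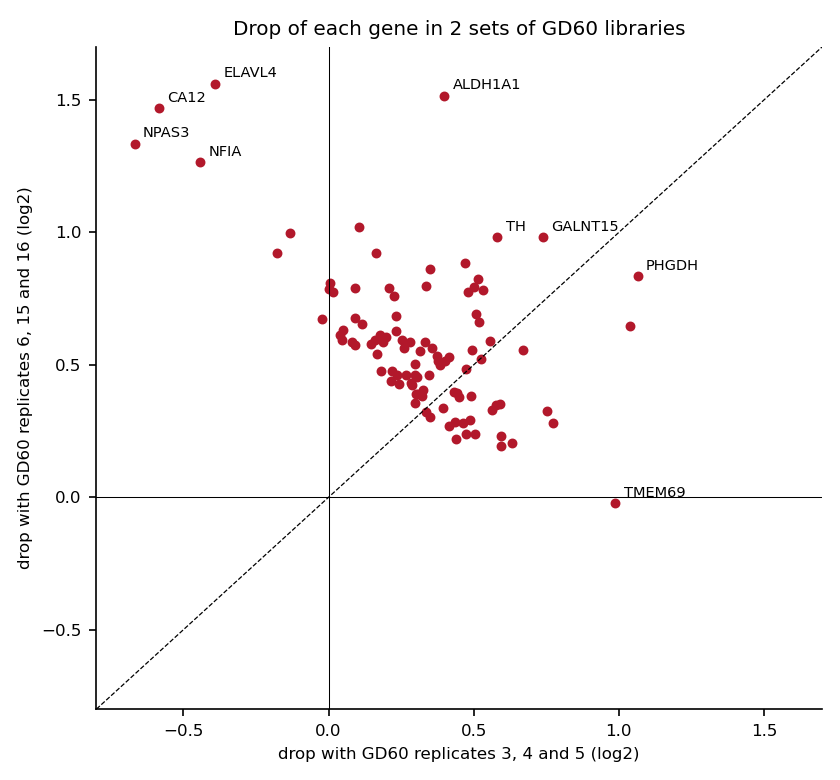
Drop of each of the 100 genes with GD60 taken as replicates 3, 4 and 5 (horizontal) and as replicates 6, 15 and 16 (vertical), in log2 CPM, with the line of equality dashed. 73 genes lie above the line, and ELAVL4, CA12, NFIA and NPAS3 lie to the left of 0.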

How the data were processed

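Total RNA of whole fetal pig brains was sequenced in 18 libraries. The authors checked reads with FastQC, trimmed them with Trimmomatic, aligned them to Sscrofa11.1 with HISAT2 and deposited raw read counts per gene, exon and transcript from featureCounts. The options for strand and for reads with several matches were not given in the sources used here. The tables held 22 columns, and the runs of 4 libraries sequenced in 2 runs were summed.

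Counts were scaled by TMM in edgeR 4.0.16 (R 4.3.3), and a prior count of 2 was used for log2 CPM. The quasi-likelihood test was fitted to 6 groups over 16325 genes kept by filterByExpr, with an adjusted p threshold of 0.05, and DESeq2 1.42.0 and the likelihood ratio test were alternatives. All 100 genes passed that filter. The spread was estimated over all 18 libraries, so the held-out comparisons of a sex shared it with the other sex. The authors used a paired-sample edgeR test, the pairs of which were not given in the sources used here. The rule, the test between the sexes at GD60 and the test of GD60 against GD45 in males were tried on simulated data, and the other tests were not. P-values measure the spread between fetuses, and counting error takes reads as independent molecules.

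The members, the lists and the tests were chosen with earlier results of these data known. The genes named were the 20 highest drops, members of any listed set, members called between the sexes or for the interaction, and the genes at the limit (ranks 99 to 102). Others named, including those of the groups made from the values, were chosen after their values were seen. Promoters were read from the RefSeq Sscrofa11.1 genome with samtools 1.23.1 and pysam 0.24.0, at the start of the RefSeq gene of the same symbol, chromosome and strand that overlapped the gene of the table. No protein sequences were used here.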

Additional observations from a re-analysis of the deposited data

Results flagged for a closer look

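Among the 20 highest drops and the mean of the 100 genes, 63 sets of 6 libraries of a day were examined for a library far from the others, and 11 stood out. Chance gives about 1 in 20 for a single set, but these genes were chosen by the same values and share the 18 libraries, so the count is not read against that rate. Male GD60 replicate 16 was far below the other GD60 libraries in ALDH1A1 (log2 CPM of -1.42, next 1.85), TH (0.33, next 2.32) and PLEKHB1 (5.05, next 5.41). Male GD45 replicate 17 was far below in ELAVL4 (2.32, next 5.36) and MOXD1 (3.26, next 3.64) and far above in CA14 (3.57, next 2.81). At GD60, female replicate 15 was far above in CA14 (2.62, next 1.83), male replicate 4 far above in HIBCH (3.39, next 3.14), and female replicate 3 far below in NUDT7 (1.40, next 2.51). Male GD90 replicate 1 was far above in GALNT15 (4.21, next 3.80) and LRRN1 (5.72, next 5.44).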

How the results depend on the processing

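Of the 100 genes, 55 stayed in the list with a mean CPM limit of 1, 61 with the median of the 6 libraries in place of the mean, 57 without the GD60 pair with a litter size of 8, and 39 with GD60 as replicates 3, 4 and 5 only or as replicates 6, 15 and 16 only, and leaving out 1 library each kept 65 to 96. The last 3 of these settings were chosen after seeing the data, as was the use of further gene names (94 kept). DESeq2 size factors, no TMM factors, prior counts of 0.5 and 5, a CPM limit of 10, the first run only, the removal of the length trend and the omission of the GD45 pair with a litter size of 8 kept 98, 94, 99, 99, 71, 95, 83 and 67. The drop of ELAVL4 was -0.39 with GD60 replicates 3, 4 and 5 only, and the cause was not tested.

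The interaction from GD60 to GD90 called 1 gene with DESeq2, 1 with the likelihood ratio test and 0 to 9 with 1 library left out. Of the genes chosen in females, those lower at GD60 in males numbered 13 with DESeq2, 5 without TMM factors, 1 with the 9 male libraries only and 3 to 10 with 1 library left out, and those higher at GD90 numbered 13 to 32. Of the genes chosen in males, those lower at GD60 in females numbered 5 without TMM factors, 15 with the 9 female libraries only and 2 to 12 with 1 library left out, and those higher at GD90 numbered 11 without TMM factors and 7 to 32. For the genes chosen in 1 sex, the shares over all genes with DESeq2, without TMM factors or with 1 library left out are not given here. Their changes in count are therefore not read as changes in the chosen genes.

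With a replicate block for the female and male of each day and litter size, 0 of the 100 genes were called between the sexes at GD45, GD60 or GD90. The deviations of such pairs correlated at -0.09, 0.14 and -0.05 at GD45, 0.42, 0.05 and 0.34 at GD60 and 0.33, 0.08 and 0.14 at GD90. Whether such pairs shared a dam is not stated by the labels. The main tests did not pair them and took each fetus as independent. The 29 genes with a mean under 10 CPM rest on the fewest reads.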
